A study of Arabidopsis with 2 samples.

Results

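SAI-LLP1 (AT5G03350), a gene for a legume lectin-like protein that is induced by salicylic acid, was compared here with 9 genes of the salicylic acid pathway. These genes were PR1, PR2, PR5, NPR1, EDS1, PAD4, ICS1, NIMIN1 and WRKY70. The 10 genes were taken by their locus identifiers, and each had 1 probe among the 21500 gene probes of the array. The question was whether SAI-LLP1 was lower in cuc1 cuc2 embryos by itself or together with genes of the pathway by which it is named.

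The samples were torpedo stage embryos of the double mutant cuc1 cuc2, taken from parent plants of the genotype cuc1-1 cuc2-1/+, and embryos of the Arabidopsis accession Ler. CUC1 and CUC2 are NAC transcription factors that act at the boundary between the cotyledons. The RNA of each genotype came from about 100 pooled whole embryos and was compared on a pair of two-colour arrays, in which the spot brightness of cuc1 cuc2 and Ler is read in competing dyes. Cy5 labelled cuc1 cuc2 in experiment 1 and Ler in experiment 2, with Cy3 on the other genotype. The extracts were the same in both, so there was 1 biological replicate per genotype and the difference between experiments covers technical error only.

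Salicylic acid is a plant hormone of defence against pathogens that live on living tissue. It is made largely from chorismate by way of ICS1, and its build-up is promoted by the lipase-like proteins EDS1 and PAD4. The hormone acts through NPR1, a coactivator that works with TGA transcription factors on genes such as PR1, PR2 and PR5, while NIMIN1 binds NPR1 and restrains it. WRKY70 is a transcription factor induced downstream of NPR1. Induced transcription of these genes is best known from infected leaves.

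A ratio is given as the log2 of cuc1 cuc2 over Ler, so that values under 0 mean less signal in cuc1 cuc2. The ± after the ratio of an experiment is the error estimated by the scanner software. The ± after a mean combines the errors of both experiments as if they were independent. A gene was called where the deposited p-value of the spot was under 0.01 in both experiments with the ratio on the same side of 0, which is the study's rule for lower genes and its mirror for higher genes. Of all gene probes, 0.242% were called lower and 0.502% were called higher. In each experiment between 87.5% and 88.8% of gene probes were well above background in each channel, and the median log2 ratio over all of them was 0. Of the mutated genes, CUC2 had log2 ratios of -0.62 and -0.999 and CUC1 had 0.02 and -0.11. The probe positions relative to the mutations were not analysed here. STM, a homeobox gene of the shoot meristem, had a mean log2 ratio of -2.08.

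SAI-LLP1 was the only one of the 10 genes that was called. It is shown by the primers that the study designed for it on chromosome 5, because the transcript is defined by them for cloning, for the in situ probe and for qRT-PCR. The sequence of the array probe was not used here. Each primer is written 5′ to 3′ without vector adapters, and the capitals mark the start codon in GwLegume_F and the complement of the stop codon in GwLegume_R.
GwLegume_F: ATGaagattcataaactctg
GwLegume_R: TTAgattctcttggcactgttct
legumeF: gtcttccttggagacgctga
legumeR: ctggaaggtccaactccaaa
AT5G03350-L: ggtccactccagtccctttc
AT5G03350-R: gaaagtgaaagaagtttcaaatggat
The pair GwLegume_F and GwLegume_R served for cloning, legumeF and legumeR for the in situ probe, and AT5G03350-L and AT5G03350-R for qRT-PCR. None of the values reported here came from these assays.

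The dye-normalized signal of the SAI-LLP1 probe in experiment 1 was 3133 in cuc1 cuc2, against 5892 in Ler. In experiment 2 it was 2919 in cuc1 cuc2, against 5679 in Ler. All 4 signals were well above background, and both cuc1 cuc2 signals lay below both Ler signals. The log2 ratio was -0.91 ± 0.18 in experiment 1 and -0.96 ± 0.18 in experiment 2. The mean of -0.94 ± 0.13 is a 1.91-fold lower signal in cuc1 cuc2 embryos, and it stood at place 41 from the lowest of the 21500 gene probes. The experiments differed by 0.05, much less than the ratio itself. SAI-LLP1 was first chosen by the study on these same arrays, so its own call is a description and not a test. The study then examined it by other assays. It reported less SAI-LLP1 in the mutant by qRT-PCR at the heart stage, and not at the bending cotyledon stage. By in situ hybridization it reported signal only in the boundary region, which was absent there in cuc1 cuc2. Signal of the array probe nonetheless stayed well above background in cuc1 cuc2, and the reason was not tested. In seedlings with an inducible CUC1, the study reported that SAI-LLP1 rose upon induction with protein synthesis blocked, and not upon induction alone. The paper proposes that CUC1 regulates it directly. Expressed alone from the CUC2 promoter, SAI-LLP1 did not rescue cuc1 cuc2 seedlings. In RNA of whole embryos, fewer cells that hold a transcript and less of it per cell cannot be told apart.

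**Figure D1:**
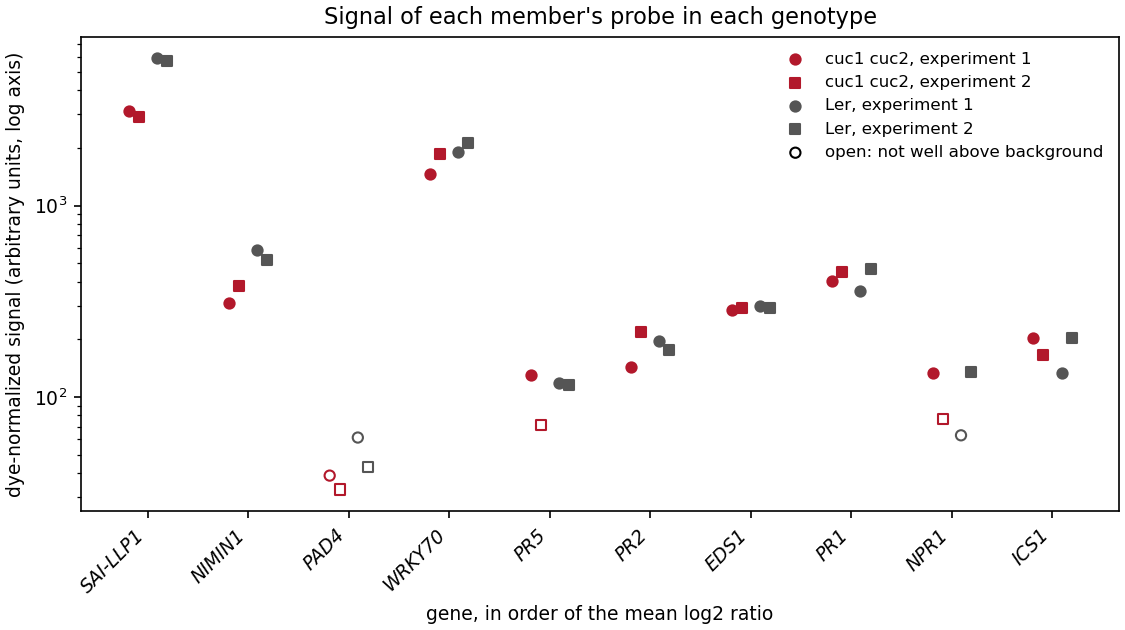
Dye-normalized signal of each gene's probe, in arbitrary units on a log axis, with cuc1 cuc2 in red to the left of Ler in grey; circles are experiment 1, squares are experiment 2, and open symbols are signals not well above background. The cuc1 cuc2 and Ler symbols stand apart in both experiments for SAI-LLP1 (3133 and 2919 in cuc1 cuc2, 5892 and 5679 in Ler), whereas PAD4 is open throughout; brightness is not comparable between probes.

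Of the 10 genes, 1 was called lower and 0 were called higher, beside 0.242% and 0.502% of all gene probes. The call of SAI-LLP1 stood alone among them also with the p limit at 0.05, where its own call follows from that at 0.01. At 0.05, 0.474% of all gene probes were called lower and 1.10% higher. The call stood alone as well with the limit at 0.001, and with Benjamini-Hochberg adjustment of the p-values in each array. The log2 ratio was below 0 in both experiments for 4 of the 10 genes (SAI-LLP1, NIMIN1, WRKY70 and EDS1), against 22.9% of all gene probes. Without SAI-LLP1, which the study had selected for being low, the log2 ratio was below 0 in both for 3 of 9 genes. It was above 0 in both experiments for 0 of the 10 genes, against 23.1% of all gene probes. For the other 6 the ratio changed side or was listed at 0 in an experiment. The median of the mean log2 ratios was -0.07 over the 9 genes other than SAI-LLP1, compared with a median within 0.01 of 0 over all gene probes. The 10 genes were not all measured equally well, since the probes of 7 were well above background in every channel (SAI-LLP1, NIMIN1, WRKY70, PR2, EDS1, PR1 and ICS1).

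**Figure D2:**
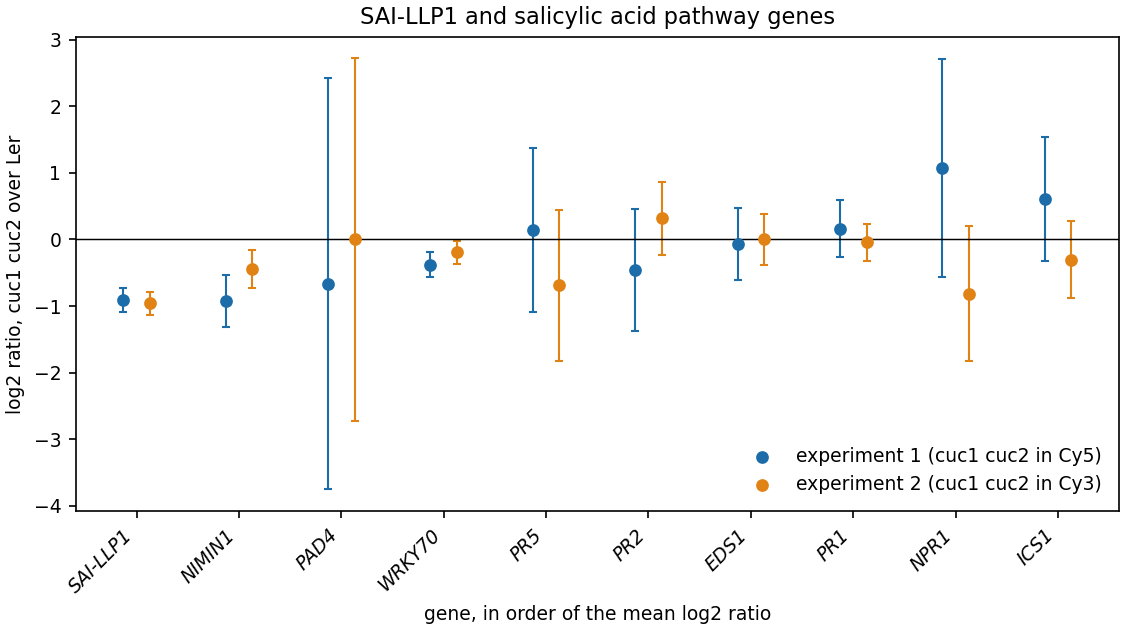
Log2 ratio of cuc1 cuc2 over Ler for each gene in experiment 1 (blue) and experiment 2 (orange), ordered by the mean of both, with bars of 1 software error to each side. SAI-LLP1 has -0.91 and -0.96 with bars clear of 0, NIMIN1 and WRKY70 lie below 0 in both experiments, and the pairs of PR5, PR2, PR1, NPR1 and ICS1 lie on opposite sides of 0.

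Among the genes that make salicylic acid or promote its build-up, ICS1 (AT1G74710), which encodes the isochorismate synthase, was not called. Its signal in experiment 1 was 202 in cuc1 cuc2, against 133 in Ler, and in experiment 2 it was 165 in cuc1 cuc2, against 203 in Ler. In each experiment the genotype in Cy5 was the brighter one, and the signals of the genotypes overlapped. The log2 ratios were 0.61 ± 0.93 and -0.30 ± 0.58, with a mean of 0.15 and a 95% interval of the error model between -0.93 and 1.23. Intervals of this kind cover the measurement error of these spots and not the spread between plants.

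EDS1 (AT3G48090), the lipase-like partner of PAD4 upstream of salicylic acid, had nearly equal signals in both genotypes. Its signal in experiment 1 was 285 in cuc1 cuc2, against 299 in Ler, and in experiment 2 it was 292 in cuc1 cuc2, against 292 in Ler. The log2 ratios were -0.07 ± 0.54 and -7.5e-05 ± 0.39, so its place among the genes below 0 in both experiments rests on a difference far inside the error. The mean of -0.03 had an interval between -0.69 and 0.62. A near-identical gene, AT3G48080, lies beside EDS1 in the Columbia genome, and whether the EDS1 probe also binds its transcript was not tested.

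PAD4 (AT3G52430) was not well above background in any channel, and no fold is given for it. Its signal was 38.8 in cuc1 cuc2, against 61.3 in Ler in experiment 1, and 32.8 in cuc1 cuc2, against 42.9 in Ler in experiment 2. The software listed log2 ratios of -0.66 and 0 with errors of 3.09 and 2.72. A difference in PAD4 as large as that of SAI-LLP1 was not detectable at this signal.

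Of the genes that receive the salicylic acid signal, NPR1 (AT1G64280) gave ratios of opposite sign that followed the dye. Its signal in experiment 1 was 133 in cuc1 cuc2, against 63.0 in Ler, and in experiment 2 it was 76.5 in cuc1 cuc2, against 134 in Ler. The probe was well above background only in the Cy5 channel of each array, whichever genotype that channel held. The log2 ratios were 1.07 ± 1.63 and -0.81 ± 1.01, and the mean of 0.13 had an interval between -1.75 and 2.01.

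NIMIN1 (AT1G02450), whose small protein binds NPR1 and restrains it, came closest to SAI-LLP1. Its signal in experiment 1 was 309 in cuc1 cuc2, against 587 in Ler. In experiment 2 it was 381 in cuc1 cuc2, against 517 in Ler. All 4 signals were well above background, and both cuc1 cuc2 signals lay below both Ler signals. The log2 ratio was -0.93 ± 0.39 in experiment 1, nearly that of SAI-LLP1, and -0.44 ± 0.28 in experiment 2. The mean of -0.68 ± 0.24 was at place 95 from the lowest, and its interval between -1.16 and -0.21 did not include 0. NIMIN1 was not called, since its deposited p-value was above 0.01 in both experiments and above 0.05 in experiment 2. Under all 4 alternatives run with the array package limma, which change the background correction, the normalization or both, its mean log2 ratio lay nearer to 0, between -0.42 and -0.26, and the cause was not tested.

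WRKY70 (AT3G56400), a transcription factor downstream of NPR1, had a smaller difference of the same sign. Its signal was 1471 in cuc1 cuc2, against 1914 in Ler in experiment 1, and 1864 in cuc1 cuc2, against 2133 in Ler in experiment 2. Both cuc1 cuc2 signals lay below both Ler signals, the higher one by little. The log2 ratios were -0.38 ± 0.19 and -0.19 ± 0.17. The mean of -0.29 ± 0.13 had an interval between -0.54 and -0.04, and the gene was not called because the p-value was above 0.01 in both experiments.

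The PR genes are the usual transcriptional markers of the salicylic acid response. Of the 3, 0 were called, beside 0.242% of all gene probes called lower and 0.502% higher. PR1 (AT2G14610), whose secreted protein is the best known of them, had a signal of 402 in cuc1 cuc2, against 359 in Ler in experiment 1. In experiment 2 its signal was 453 in cuc1 cuc2, against 467 in Ler. The log2 ratios of 0.16 ± 0.43 and -0.04 ± 0.28 lay on both sides of 0, and the genotypes overlapped. The mean of 0.06 had an interval between -0.44 and 0.56, which does not reach the ratio of SAI-LLP1.

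PR2 (AT3G57260), which encodes a beta-1,3-glucanase, had a signal of 144 in cuc1 cuc2, against 197 in Ler in experiment 1. In experiment 2 its signal was 219 in cuc1 cuc2, against 175 in Ler. The order of the genotypes was thus reversed with the dyes, and in each array the Cy3 channel was the brighter one. The log2 ratios were -0.45 ± 0.92 and 0.32 ± 0.55. The mean of -0.07 had an interval between -1.11 and 0.98, which includes the ratio of SAI-LLP1.

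PR5 (AT1G75040), which encodes a thaumatin-like protein, was well above background in 3 of 4 channels. Its signal was 130 in cuc1 cuc2, against 118 in Ler in experiment 1, and 71.5 in cuc1 cuc2, against 115 in Ler in experiment 2. The value of 71.5 was the one not well above background. The log2 ratios were 0.14 ± 1.23 and -0.69 ± 1.13, and the mean of -0.28 had an interval between -1.91 and 1.36.

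The difference between SAI-LLP1 and each of the other 9 genes was then set against the combined error of both ratios. The interval of the difference left out 0 for 3 genes. The log2 ratio of SAI-LLP1 minus that of PR1 was -0.995 (95% interval between -1.56 and -0.43). Minus that of EDS1 it was -0.90 (between -1.60 and -0.20), and minus that of WRKY70 it was -0.65 (between -1.001 and -0.30). For the other 6 genes the interval included 0. For NIMIN1 the difference was -0.25 (between -0.79 and 0.28), made up of 0.02 in experiment 1 and -0.52 in experiment 2. The difference from ICS1 was -1.09 with an upper bound of 0.02, and that from PR2 was -0.87 with an upper bound of 0.20. For PR5, NPR1 and PAD4 the intervals ran from -2.32 to 0.996, from -2.97 to 0.83 and from -4.65 to 3.44. All 9 differences reuse the SAI-LLP1 ratio, which the study had selected for being low on these arrays. They are therefore descriptions and not tests, and they are not independent of each other.

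**Figure D3:**
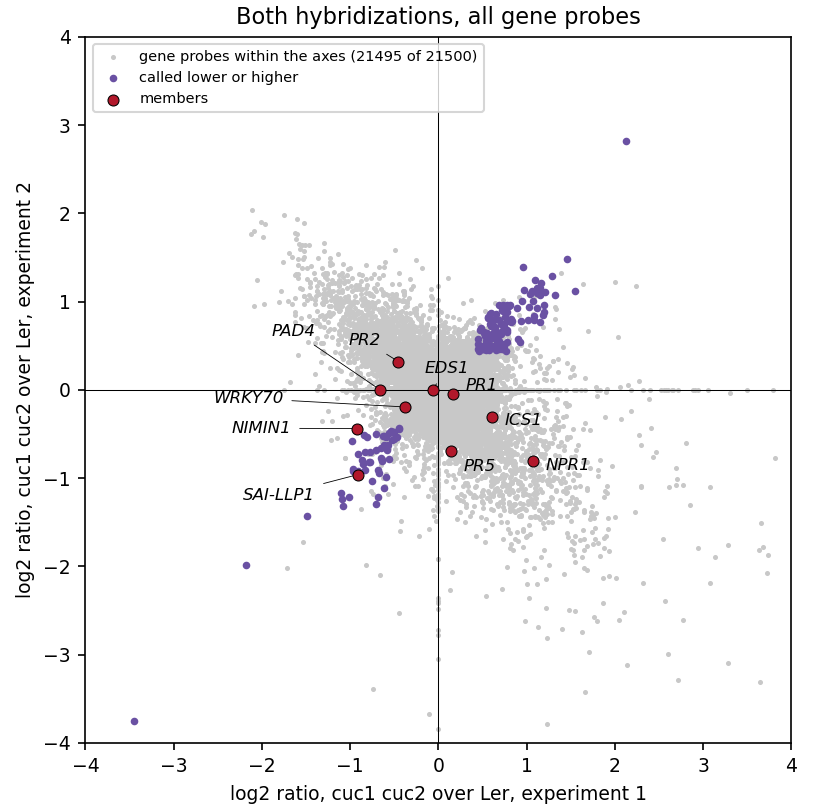
Log2 ratio of cuc1 cuc2 over Ler in experiment 1 (horizontal) against experiment 2 (vertical) for the gene probes in grey, the called ones in purple and SAI-LLP1 with the 9 pathway genes in red. SAI-LLP1 lies among the probes called lower at -0.91 and -0.96, NIMIN1 lies just above them at -0.93 and -0.44, and ICS1, NPR1, PR5 and PR2 lie where a ratio that follows the dye falls.

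The rest of the pathway was read from a list of 50 further genes, of which 48 had a probe and 39 were well above background in every channel. NIMIN-2 and NIMIN-3 were not analysed here. Of the 48 genes, 0 were called lower and 0 were called higher, beside 0.242% and 0.502% of all gene probes. The ratio was below 0 in both experiments for 6 genes and above 0 in both for 11 genes, which is 12.5% and 22.9% of the list beside 22.9% and 23.1% of all gene probes. The median of the mean log2 ratios was 0.01. The SAI-LLP1 ratio of -0.94 lay outside the range of the 39 well-measured genes, whose mean log2 ratios ran from -0.48 to 0.55. That position is a description and not a test, because the study had selected SAI-LLP1 for being low on these arrays.

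Of the 10 further genes of salicylic acid synthesis, 6 were well above background in every channel, with a median of 0.21. PAL2 (AT3G53260), a phenylalanine ammonia-lyase, was the highest of them with log2 ratios of 0.36 and 0.47, and SARD1, a regulator of ICS1, was the lowest with a mean of -0.04. PAL2 was not called at the limit of 0.01 but was called higher at 0.05. All 23 signalling genes with a probe were well above background, with a median of -0.02. Their range ran from WRKY46 at -0.28, a transcription factor related to WRKY70, to the immune receptor ADR1 at 0.55, which had 0.33 and 0.77 in the experiments. The 7 TGA factors, the DNA-binding partners of NPR1, had mean log2 ratios between -0.14 and 0.05, and were picked out after their values were seen.

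Among the 10 genes of salicylic acid metabolism, 6 were well above background. GH3.5 (AT4G27260), which joins amino acids to salicylic acid and auxin, was the lowest with log2 ratios of -0.56 and -0.39. It was called lower at the limit of 0.05 and not at 0.01. The glucosyltransferase UGT74F1 was the highest with 0.40 and 0.33. The 5 further response genes were GRXC9, PDF1.2, PR4, PR3 and AED1, a list not limited to genes that salicylic acid induces. Of these 5 genes, 0 had a ratio of the same sign in both experiments. Among all gene probes, 22.9% were below 0 in both and 23.1% above 0 in both. The 4 well-measured response genes ran from -0.11 for the glutaredoxin GRXC9 to 0.06 for the protease AED1.

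Of 9 other legume lectin genes, the family of SAI-LLP1, 8 had a probe and 7 were well above background in every channel. Of the 8, 0 were called in either direction, beside 0.242% of all gene probes called lower and 0.502% higher. The ratio was above 0 in both experiments for 5 of the 8, of which 4 were well above background in every channel. It was below 0 in both for 0 of them. The shares of all gene probes were 23.1% above 0 and 22.9% below 0 in both. The median of the list was 0.11. LLP3 (AT3G15356), the highest of those well above background, had log2 ratios of 0.76 and 0.18, and AT1G53080, the lowest, had a mean of -0.02. LLP2 (AT3G16530) had 0.16 and 0.12 and was named after its values were seen, for its likeness in name.

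**Figure D4:**
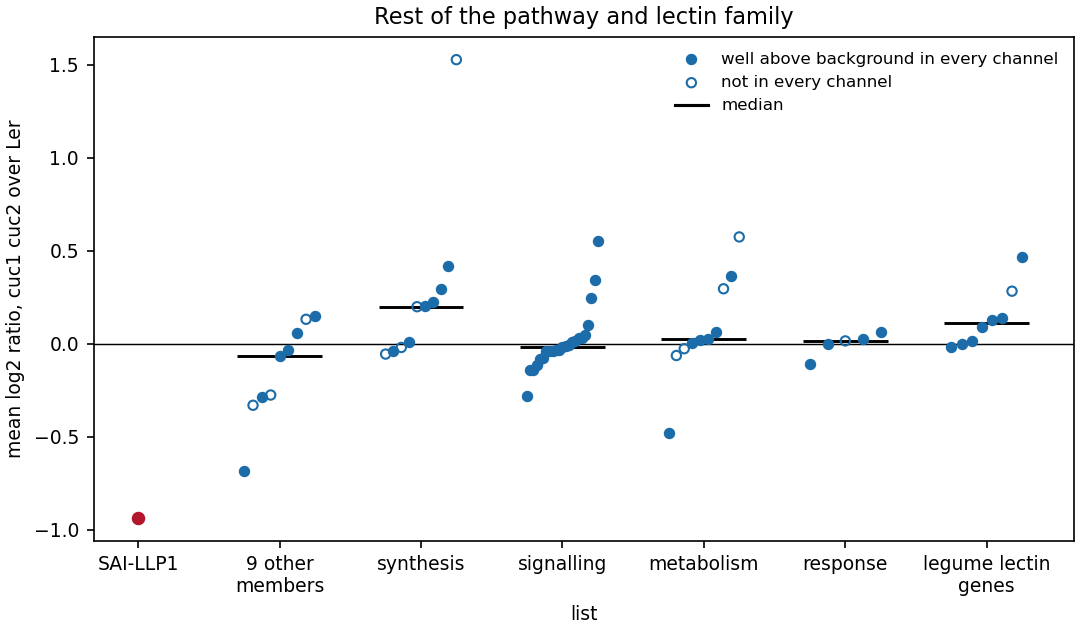
Mean of both log2 ratios (cuc1 cuc2 over Ler) for SAI-LLP1 (red), for the 9 other pathway genes described above and for the genes of each further list (blue), with a black line at each median and open circles for probes not well above background in every channel. SAI-LLP1 at -0.94 lies below every gene of the lists, the lowest of which are NIMIN1 at -0.68 and GH3.5 at -0.48. SAI-LLP1 had been selected by the study for being low on these arrays.

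The called genes whose pair of ratios was nearest to that of SAI-LLP1 were found by the distance over both experiments. They were AT5G51570 at a distance of 0.05 on the log2 scale, AT5G47590 at 0.07, SPX1 (AT5G20150) at 0.08, AtCDC48B (AT3G53230) at 0.10 and APR3 (AT4G21990) at 0.13. SPX1 encodes a sensor protein of phosphate status and APR3 an enzyme of sulphate reduction. A likeness over 2 hybridizations of 1 pair of extracts is a description of size only.

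On the chromosome, 1 of the 10 probes nearest to SAI-LLP1 by locus number was also called lower, beside 0.242% of all gene probes. This was AtCDC48C (AT5G03340), which encodes an AAA ATPase and had log2 ratios of -0.62 ± 0.18 and -0.62 ± 0.17. The locus AT5G03345 lies between it and SAI-LLP1, and its annotated end overlaps that of SAI-LLP1. It was not analysed here, and whether the probe of SAI-LLP1 reads its transcript was not tested. The other 9 neighbours had mean log2 ratios between -0.21 for ADK2, an adenosine kinase gene, and 0.18 for AT5G03320. The adjoining AT5G03360 had 0.10 and -0.12.

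**Figure D5:**
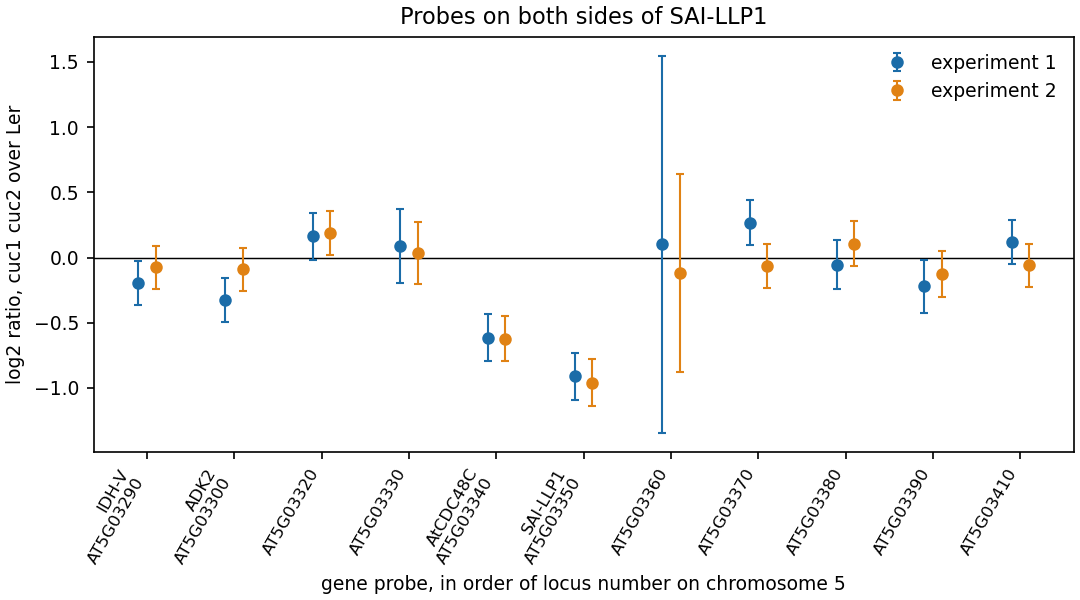
Log2 ratio of cuc1 cuc2 over Ler, with bars of 1 software error to each side, for SAI-LLP1 and the 5 gene probes on each side of it in order of locus number, in experiment 1 (blue) and experiment 2 (orange). SAI-LLP1 and AtCDC48C are the genes whose points and bars lie below -0.4 in both experiments.

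Markers of other tissues were compared, since embryos were cut out of seeds. All 7 embryo markers were well above background in every channel, with a summed signal of 56537 in cuc1 cuc2, against 49290 in Ler in experiment 1, and of 59578 in cuc1 cuc2, against 52632 in Ler in experiment 2. Of these, NF-YB6 and OLEO1, a seed oil body protein gene, were called higher, beside 0.502% of all gene probes. Their mean log2 ratios were 0.66 and 0.60. Whether the pools of embryos differed in stage was not tested. LEC1, FUS3 and ABI3 had means between 0.03 and 0.06, and LEC2 and CRA1 had -0.12 and -0.26. Much of the gap between the sums came from NF-YB6. Its signal was 15700 in cuc1 cuc2, against 9183 in Ler in experiment 1, and 15384 in cuc1 cuc2, against 10535 in Ler in experiment 2. Of 6 endosperm markers 4 were well above background, and the summed signal was 1936 in cuc1 cuc2, against 1919 in Ler, then 1823 in cuc1 cuc2, against 1544 in Ler. The gap in experiment 2 was smaller than that of SUC5 alone (790 in cuc1 cuc2, against 481 in Ler). SUC5 had log2 ratios of 0.08 and 0.72, and FIS2, ZOU and IKU2 were below 0 in experiment 2. Of 5 seed coat markers 3 were well above background, with sums of 2107 in cuc1 cuc2, against 2358 in Ler, then 2373 in cuc1 cuc2, against 2341 in Ler. The endosperm marker IKU2 and the seed coat markers BAN and TT12 were not above background in any channel. None of the endosperm and seed coat markers was called, and the part of other tissues in the SAI-LLP1 ratio was not tested.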

How the data were processed

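Embryo RNA of cuc1 cuc2 and Ler was hybridized to 2 Agilent arrays, a dye swap of 1 pair of extracts. The authors deposited scanner output of Agilent Feature Extraction, with processed intensity in each channel after background subtraction and dye normalization, the log10 ratio of red over green with its error, and a p-value per spot. The genome build of the array design is not given in the sources used here. The deposited log10 ratio was turned by the dye labels to log2 of cuc1 cuc2 over Ler, control spots were left out, and both experiments were averaged. The table of values that the authors deposited beside the scanner output held the same log10 ratios, already run as cuc1 cuc2 over Ler in both columns. The error of a mean is the square root of the summed squares of both software errors, divided by 2. This treats the errors of the 2 arrays as independent, although both arrays used the same extracts. Intervals are 1.96 errors to each side. With 1 biological replicate per genotype no test across replicates was made, and the number of arrays limits the precision.

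The members and lists were chosen with earlier results of these data known. Beside the 10 genes, the text names the called and the extreme well-measured genes of each list and all further response genes. It also names the 5 called genes nearest in pattern, the 5 probes on each side and CUC1, CUC2 and STM. Names came from RefSeq (assembly TAIR10.1), where 105 of 106 identifiers matched. The call rule was tested on simulated data, with changes larger than that of SAI-LLP1 placed only in bright probes of low error. That test does not cover smaller changes or dim probes. Alternatives were other p limits, each experiment alone, and limma 3.58.1 (R 4.3.3) with other background corrections and normalizations, with a normexp offset of 50. Calls by a log2 ratio beyond 0.5 after limma were added after seeing the data. Python 3.11.15 was used for the rest.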

Additional observations from a re-analysis of the deposited data

How the results depend on the processing

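SAI-LLP1 was called lower, and no other of the 10 genes was called, under each p limit tried and with dim probes left out. The same held in each experiment alone and with a log2 ratio beyond 0.5 in place of the p limit. For SAI-LLP1 itself, the calls at 0.05, in each experiment alone and with dim probes left out follow from its main call and bright signal. The mean log2 ratio of SAI-LLP1 was -0.79 with no background correction and loess, and reached -0.87 at the lowest among the 4 limma alternatives. It was -0.96 and -0.91 when either experiment was left out. Scaling by the median after normexp spread its experiments apart, to -0.60 and -1.07. NIMIN1 lay between -0.42 and -0.26 and WRKY70 between -0.25 and -0.20 under the limma alternatives, and both were below 0 in both experiments under all 4. In the list of 48 further pathway genes, 1 was called lower (GH3.5) and 1 higher (PAL2) with the p limit at 0.05, and leaving out either experiment gave between 0 and 1 called higher (PAL2). The cause was not tested. The other 103 values under alternatives, of ratios of the 10 genes and of counts, stayed within the software error or the SD between experiments, whichever is larger, or, for counts, within 1.5 times. No paired analysis was possible because both arrays compare the same pair of extracts. Signal over background limits PAD4, NPR1 and PR5, whose errors exceed the SAI-LLP1 ratio or come close to it.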
